A study of Homo sapiens with 9 samples.

Results

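The 40 genes described here carry glucose into the cell, break it down to pyruvate and lactate, or sense and answer a shortage of oxygen. They were listed by name as a module of glucose uptake, glycolysis, lactate handling and the response to hypoxia-inducible factors (HIF), and the rule uses no measured value, but the list was drawn up with earlier results of these data known. All 40 were found among the 63677 gene identifiers of the count files. RNA of SW480 cells, a colon adenocarcinoma line (genotype WT in the labels), was compared with RNA of 2 derivatives, with 3 libraries per line. The study calls the BASP1 gene of SW480 silenced. In the derivatives BASP1, a membrane-associated and nuclear protein that opposes MYC, was switched on. SW480-B (ectopic BASP1) is 1 geneticin-resistant clone grown from a single SW480 cell after nucleofection with a plasmid that drives the BASP1 coding sequence from a cytomegalovirus promoter. SW480-gRNA-B-all (CRISPRa BASP1) was obtained by lentiviral delivery of MS2-P65-HSF1, of dCas9-VP64 and then of pooled guide RNAs to the BASP1 promoter. The cells were selected with hygromycin B and puromycin, and were cloned from single cells before the guide RNAs were delivered. In both derivatives the choice of a clone therefore cannot be told apart from BASP1. Both lines were set against parental SW480 and not against a vector control. The labels give all 9 libraries the same treatment entry and the same batch date. They name Leibovitz L-15 without added CO2 as the medium of SW480 and no separate medium for the derivatives, while the study's methods also name DMEM for SW480, and which of these each library came from was not settled here. As general background, L-15 carries galactose in place of glucose.

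Glycolysis turns glucose into pyruvate through a chain of cytosolic enzymes, and many tumor cells run it at a high rate and release the product as lactate even when oxygen is present. Pyruvate dehydrogenase kinases (PDK) hold pyruvate back from the mitochondria, and monocarboxylate transporters (SLC16A) move lactate across the cell membrane. The HIF alpha subunits HIF1A and EPAS1 are marked for destruction by the oxygen-dependent prolyl hydroxylases of the EGLN family. When oxygen is short they persist, pair with ARNT and raise genes of glycolysis, angiogenesis, acid export and their own hydroxylases, and MYC also drives several glycolytic genes.

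Levels are given as CPM, counts per 1000000 counts on genes after scaling by TMM, a trimmed mean of log ratios, and 3 values in a row are replicates 1, 2 and 3. Differences are log2 fold changes with their standard error, and a gene passed when its adjusted p was under 0.05 in the quasi-likelihood test of edgeR, adjusted by Benjamini and Hochberg over all genes tested. The libraries held 25238831 to 29355669 counts on genes, so that 3 counts, the limit that a count of 0 allows, correspond to 0.102 to 0.119 CPM, for counting error only. BASP1 was at 11.3, 8.09 and 0.688 CPM in SW480, 266, 269.9 and 255 CPM in SW480-B and 166, 308 and 305 CPM in SW480-gRNA-B-all, and its log2 fold change against SW480 was 5.21 ± 0.92 (SE, edgeR adjusted p = 0.025) in SW480-gRNA-B-all and 5.29 ± 0.85 (SE, edgeR adjusted p = 0.0293) in SW480-B. Of 7 colon epithelium markers 6 were above 1 CPM in every line and KRT20 was not, and their summed level ran from 7199 to 9485 CPM in SW480, 6168.5 to 10283 CPM in SW480-B and 5774 to 7407 CPM in SW480-gRNA-B-all. For EPCAM, VIL1 and CDX2 the libraries of the 3 lines did not overlap, with no test run on them, and the share of all genes without overlap was not counted. EPCAM was lowest in SW480-B, at 715, 582 and 458 CPM in SW480, 279, 293 and 337 CPM in SW480-B and 433, 354 and 346 CPM in SW480-gRNA-B-all. VIL1 (villin) was at 327, 310.4 and 98.3 CPM in SW480, 29.5, 36.1 and 30.8 CPM in SW480-B and 21.4, 6.91 and 6.45 CPM in SW480-gRNA-B-all, and CDX2, an intestinal transcription factor, at 28.9, 30.9 and 41.7 CPM in SW480, 58.3, 67.8 and 59.2 CPM in SW480-B and 5.51, 2.75 and 2.41 CPM in SW480-gRNA-B-all. VIL1 and CDX2 were lowest in all 3 SW480-gRNA-B-all libraries, as were several members described here, and their part in those results was not tested. The summed fibroblast, endothelium and leukocyte markers reached at most 11.1, 4.40 and 6.04 CPM. In a bulk sample fewer cells of a kind and less RNA per cell cannot be told apart. Replicates 2 and 3 of SW480-gRNA-B-all were nearly alike, with 0.0742% of genes differing more than 2-fold, against 7.74% and 7.78% for replicate 1 with either of them, 9.29% to 14.0% within SW480-B and 11.4% to 28.2% within SW480. The sources do not say whether the 3 libraries of a line came from separate cultures, so the p-values measure only the spread between these libraries, which may be technical.

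At most 5 members passed the test in any comparison of the lines, and none of the 16 enzymes from glucose to lactate did. Of 39 members tested between SW480-gRNA-B-all and SW480, 5 passed (12.8%), 2 higher and 3 lower. Of all 16100 genes tested there 7.80% passed, 2.29% higher and 5.52% lower. At an unadjusted p under 0.05 were 14 members, beside 28.4% of all genes, and 4 passed with a change above 2-fold, beside 6.55%. Between SW480-B and SW480, 0 of 38 members passed in edgeR, beside 1.34% of 16106 genes, 0.0931% higher and 1.25% lower. At an unadjusted p under 0.05 were 8 members, beside 15.8% of all genes. Between SW480-gRNA-B-all and SW480-B, 5 of 39 members passed (12.8%) and all 5 were lower. Of 15846 genes 8.76% passed there, 3.03% higher and 5.73% lower. At an unadjusted p under 0.05 were 12 members, beside 24.4% of all genes, and 4 passed with a change above 2-fold, beside 6.68%. DESeq2, another count test, called 9, 3 and 8 members in these comparisons, against 15.6%, 5.62% and 12.2% of the genes it tested. The median log2 fold change of the tested members was -0.25, -0.0091 and -0.18, beside -0.054, -0.0039 and -0.0044 over all genes. BNIP3, a mitophagy receptor, was too low for any test (15 counts in all 9 libraries, and 42 pseudogenes carry its name), and CA12 was too low for the test of SW480-B against SW480. The comparisons share libraries and are not independent of each other.

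**Figure D1:**
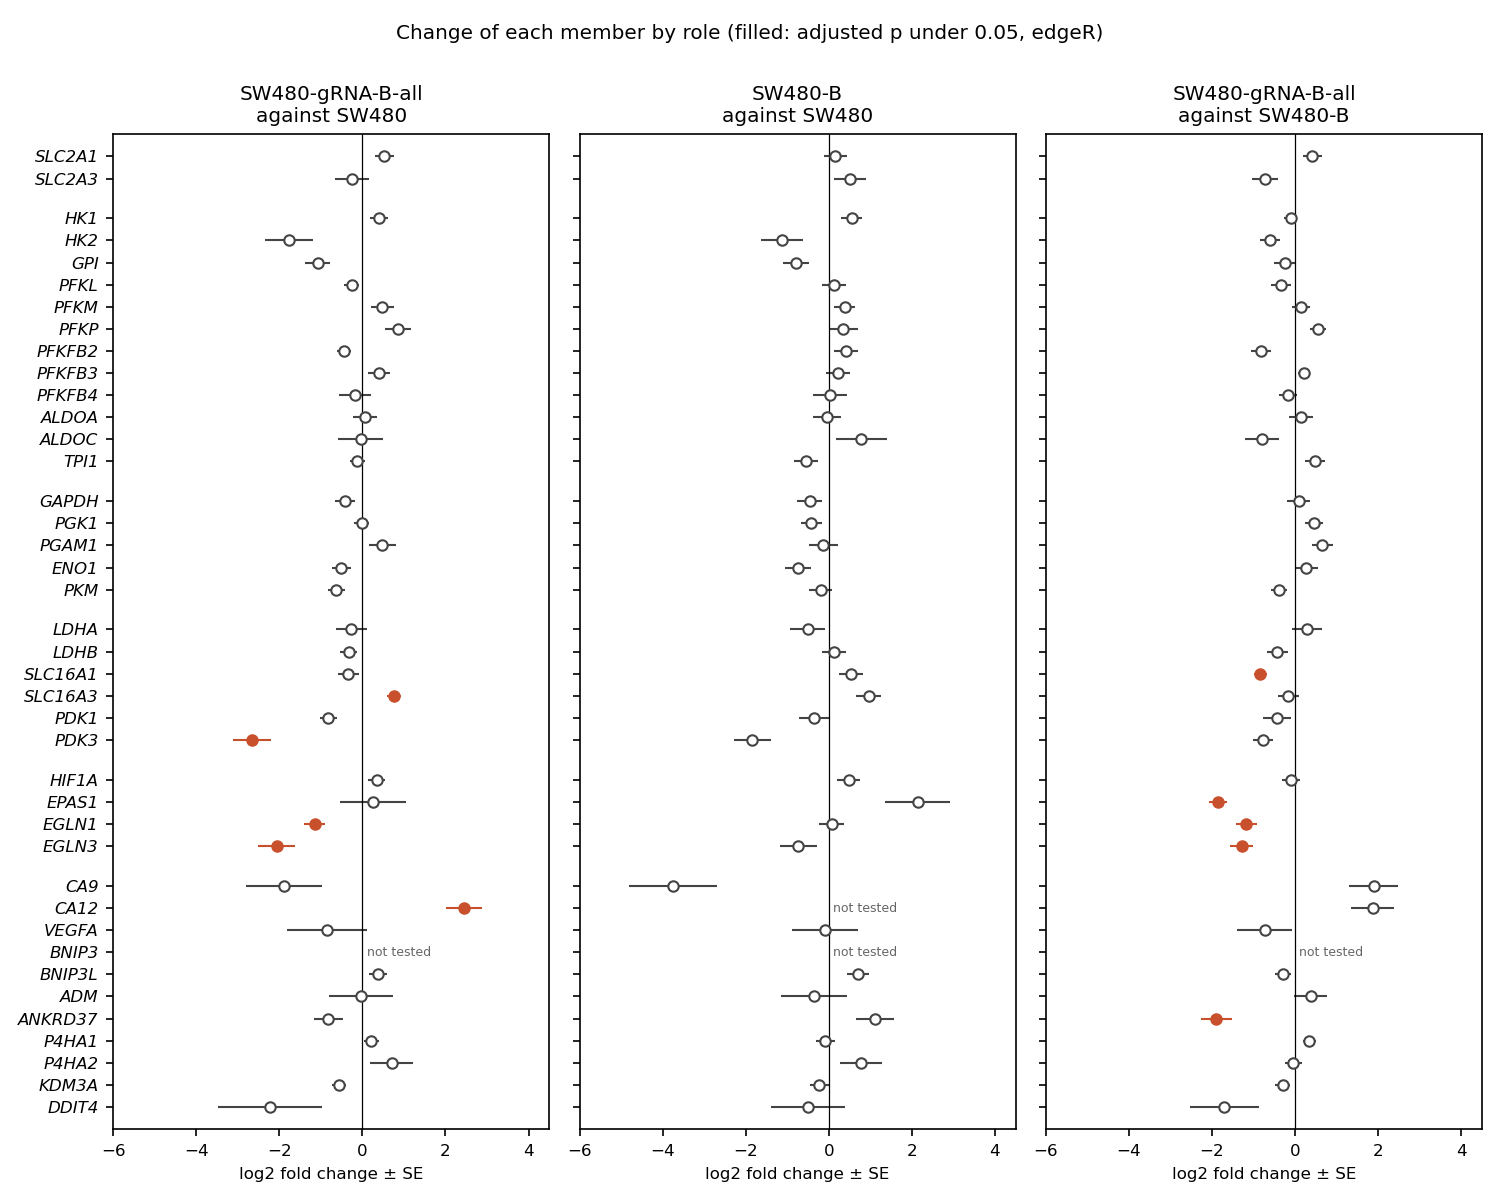
Log2 fold change with its standard error (horizontal axis) for the tested members, grouped from top to bottom as glucose uptake, upper glycolysis, lower glycolysis, lactate and pyruvate handling, oxygen sensing and HIF response, in the 3 comparisons of 3 against 3 libraries. Filled symbols passed the edgeR test: 5 members on the left, 0 in the middle and 5 on the right, 3 of the last being the oxygen-sensing genes EPAS1, EGLN1 and EGLN3.

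Of the 5 members past the test between the derivatives, 3 were oxygen-sensing genes. Of the 4 genes of this group, 3 passed as lower in SW480-gRNA-B-all when set against SW480-B, beside 5.73% of all genes. When set against SW480, 2 of 4 passed as lower, beside 5.52% of all genes. EPAS1 (ENSG00000116016, chr2:46520806-46613836 on GRCh37) encodes the HIF-2 alpha subunit. Its level was 17.4, 106 and 282 CPM in SW480, 614, 695 and 457 CPM in SW480-B and 190.2, 148 and 153 CPM in SW480-gRNA-B-all. Every SW480-B library was above every other library, while SW480 ran from the lowest value of all in replicate 1 to a value above SW480-gRNA-B-all in replicate 3. Between SW480-gRNA-B-all and SW480-B the log2 fold change was -1.85 ± 0.22 (SE, edgeR adjusted p = 0.00315). It passed in each of the 6 fits that left out 1 library (adjusted p 0.00349 to 0.0206) and with SW480-gRNA-B-all replicates 2 and 3 summed (adjusted p = 0.0206), but not in a fit of all 9 libraries (adjusted p = 0.178), which pools the spread of SW480. Against SW480 the value was 2.14 ± 0.78 (SE, edgeR adjusted p = 0.24) in SW480-B, past the test only without SW480 replicate 3 (3.27, adjusted p = 0.0311) and in DESeq2 (adjusted p = 0.0363), and 0.25 ± 0.79 (SE, edgeR adjusted p = 0.851) in SW480-gRNA-B-all, turning to -0.24 without SW480 replicate 1. HIF1A encodes the HIF-1 alpha subunit. Its level was 88.1, 131 and 151 CPM in SW480, 142, 224 and 147 CPM in SW480-B and 141, 171 and 169 CPM in SW480-gRNA-B-all, and its ranges overlapped between the derivatives. The HIF1A log2 fold changes were 0.34, 0.48 and -0.10 in the order SW480-gRNA-B-all with SW480, SW480-B with SW480 and SW480-gRNA-B-all with SW480-B, with 95% intervals of -0.068 to 0.75, -0.052 to 1.01 and -0.51 to 0.31. EPAS1 accounted for 16.5, 44.8 and 65.2% in SW480, 81.2, 75.6 and 75.7% in SW480-B and 57.5, 46.4 and 47.5% in SW480-gRNA-B-all of the counts on the 2 alpha subunit genes, a share set by transcript length as well as level.

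Both prolyl hydroxylase genes among the members were lowest in SW480-gRNA-B-all. EGLN1 (ENSG00000135766, chr1:231499497-231558033) encodes PHD2, the main oxygen sensor of the HIF pathway. Its level was 81.0, 98.5 and 54.9 CPM in SW480, 99.6, 90.6 and 54.9 CPM in SW480-B and 42.9, 33.3 and 33.0 CPM in SW480-gRNA-B-all. The 3 SW480-gRNA-B-all libraries lay below the other 6, and SW480 and SW480-B covered nearly the same range. The log2 fold change was -1.14 ± 0.25 (SE, edgeR adjusted p = 0.0404) against SW480 and -1.18 ± 0.25 (SE, edgeR adjusted p = 0.0254) against SW480-B. EGLN3 (ENSG00000129521, chr14:34393433-34931980) encodes PHD3 and is itself a HIF target. Its level was 5.54, 16.9 and 7.64 CPM in SW480, 5.50, 5.05 and 7.26 CPM in SW480-B and 2.77, 2.41 and 2.14 CPM in SW480-gRNA-B-all. The SW480-gRNA-B-all libraries were again below all others, with SW480 replicate 2 far above the rest. The EGLN3 log2 fold change was -2.06 ± 0.45 (SE, edgeR adjusted p = 0.0397) against SW480 and -1.29 ± 0.28 (SE, edgeR adjusted p = 0.0279) against SW480-B. The directions held in all fits that left out 1 library, from -1.33 to -0.93 and -1.40 to -0.997 for EGLN1 and from -2.34 to -1.45 and -1.40 to -1.13 for EGLN3, against SW480 and SW480-B in turn. The calls did not: with SW480-gRNA-B-all replicates 2 and 3 summed, the adjusted p was 0.158 and 0.112 for EGLN1 and 0.152 and 0.148 for EGLN3. VHL, which binds hydroxylated HIF alpha for degradation, is no member and was at 62.0, 62.0 and 39.4 CPM in SW480, 25.8, 26.2 and 28.0 CPM in SW480-B and 47.9, 42.0 and 39.5 CPM in SW480-gRNA-B-all, higher in SW480-gRNA-B-all than SW480-B at 0.69 ± 0.16 (SE, edgeR adjusted p = 0.034).

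The upstream sequences of EPAS1, EGLN1, EGLN3 and ANKRD37, the 4 members with a lower level of over 2-fold past the test when SW480-gRNA-B-all was set against SW480-B, are shown because HIF factors bind the core letters ACGTG or GCGTG. Each is the 250 bases before a RefSeq gene start on GRCh38.p14, read 5′ to 3′ along the gene's strand, with either core in capitals on either strand (CACGT and CACGC are the reverse strand of the same cores). The windows are EGLN1 at chr1:231422288-231422537 (minus strand), EGLN3 at chr14:33951075-33951324 (minus strand), EPAS1 at chr2:46297157-46297406 (plus strand) and ANKRD37 at chr4:185396591-185396840 (plus strand).
EGLN1: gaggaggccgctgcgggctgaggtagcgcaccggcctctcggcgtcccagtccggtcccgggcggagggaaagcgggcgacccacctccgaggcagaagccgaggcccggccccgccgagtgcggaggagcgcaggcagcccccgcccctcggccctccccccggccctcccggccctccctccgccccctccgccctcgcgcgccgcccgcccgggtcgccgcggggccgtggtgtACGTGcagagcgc
EGLN3: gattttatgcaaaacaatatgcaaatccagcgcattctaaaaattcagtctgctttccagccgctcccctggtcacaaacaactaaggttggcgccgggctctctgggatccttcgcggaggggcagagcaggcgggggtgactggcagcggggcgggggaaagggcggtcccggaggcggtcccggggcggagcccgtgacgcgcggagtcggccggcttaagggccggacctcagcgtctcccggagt
EPAS1: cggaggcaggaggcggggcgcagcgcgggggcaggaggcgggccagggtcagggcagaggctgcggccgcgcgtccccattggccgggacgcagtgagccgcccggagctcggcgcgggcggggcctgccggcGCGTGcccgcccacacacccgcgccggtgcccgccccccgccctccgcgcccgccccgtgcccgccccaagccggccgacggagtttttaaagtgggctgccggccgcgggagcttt
ANKRD37: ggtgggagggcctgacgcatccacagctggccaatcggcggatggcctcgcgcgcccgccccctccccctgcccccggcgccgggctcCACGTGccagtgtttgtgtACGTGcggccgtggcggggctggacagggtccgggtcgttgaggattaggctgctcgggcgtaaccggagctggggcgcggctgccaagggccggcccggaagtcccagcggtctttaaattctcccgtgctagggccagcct
ANKRD37 had 3 matches, one pair of which overlaps in CACGTG, the E-box letters that MYC and MAX bind, EGLN1 and EPAS1 had 1 match each, and EGLN3 had 0 in this window. Of the 35 members with an entry, 29 (82.9%) had a match in at least 1 of their windows, and 47.4% of all 27305 genes did. By window the shares were 60.3% of 63 for the members and 43.2% of 35116 for all genes. A match is a run of letters and not a measured binding site.

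Among the HIF response members, which are known as genes raised by HIF, 1 of 10 tested passed between SW480-gRNA-B-all and SW480, where it was higher. Between SW480-gRNA-B-all and SW480-B 1 of 10 passed, where it was lower. These shares of 10% stand beside 7.80% and 8.76% of all genes. Between SW480-B and SW480 0 of 9 passed in edgeR, beside 1.34% of all genes, with 3 at an unadjusted p under 0.05 and 1 called by DESeq2. ANKRD37 (ENSG00000186352, chr4:186317175-186321782) encodes an ankyrin repeat protein induced in hypoxia. Its level was 6.68, 3.44 and 6.16 CPM in SW480, 17.4, 6.34 and 11.4 CPM in SW480-B and 3.11, 3.42 and 2.99 CPM in SW480-gRNA-B-all. Each SW480-B library was above each SW480-gRNA-B-all library, and the SW480 libraries lay between them, 1 inside the range of SW480-B. Its log2 fold change between SW480-gRNA-B-all and SW480-B was -1.90 ± 0.38 (SE, edgeR adjusted p = 0.02), with a range of -2.20 to -1.48 over the fits that left out 1 library, and an adjusted p of 0.084 with SW480-gRNA-B-all replicates 2 and 3 summed. ANKRD37 shares 40.3% of its exon bases with UFSP2 on the opposite strand, and the strand setting of the counting is not given in the sources used here; UFSP2 itself differed by 0.10 ± 0.22 (SE, edgeR adjusted p = 0.813). CA12 (ENSG00000074410, chr15:63613577-63674045) is a membrane carbonic anhydrase that helps export acid. Its level was 0.131, 0.312 and 0.217 CPM in SW480, 0.154, 0.251 and 0.611 CPM in SW480-B and 0.981, 1.36 and 1.42 CPM in SW480-gRNA-B-all. It was highest in all 3 SW480-gRNA-B-all libraries yet never above 1.42 CPM, and its log2 fold change against SW480 was 2.45 ± 0.43 (SE, edgeR adjusted p = 0.0242). With SW480-gRNA-B-all replicates 2 and 3 summed the adjusted p was 0.109. The CA12 log2 fold change against SW480-B was 1.86 ± 0.52 (SE, edgeR adjusted p = 0.0639), past the test in DESeq2 (adjusted p = 0.0237).

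CA9, a related carbonic anhydrase much used as a mark of hypoxic tumor tissue, had few counts, at 1.47, 7.64 and 0.543 CPM in SW480, 0.231, 0.0717 and 0.395 CPM in SW480-B and 0.676, 0.712 and 1.26 CPM in SW480-gRNA-B-all. SW480 replicate 2 stood above all other libraries. The CA9 log2 fold change against SW480 was -3.74 ± 1.06 (SE, edgeR adjusted p = 0.155) in SW480-B and -1.89 ± 0.92 (SE, edgeR adjusted p = 0.223) in SW480-gRNA-B-all; in SW480-B it passed without SW480 replicate 3 (adjusted p = 0.0256) and in DESeq2 (adjusted p = 0.00144). Between SW480-gRNA-B-all and SW480-B the CA9 log2 fold change was 1.89 ± 0.59 (SE, edgeR adjusted p = 0.089). With the replicate number as a block the adjusted p was 0.0446. Of the CA9 exon bases, 35.7% overlap ARHGEF39 on the other strand. VEGFA is the angiogenic growth factor. Its level was 168, 64.2 and 12.5 CPM in SW480, 123, 74.9 and 34.4 CPM in SW480-B and 98.1, 21.3 and 21.9 CPM in SW480-gRNA-B-all. In every line replicate 1 was the highest, and the lines overlapped throughout. The VEGFA log2 fold changes were -0.85 ± 0.97 (SE, edgeR adjusted p = 0.587) in SW480-gRNA-B-all and -0.086 ± 0.80 (SE, edgeR adjusted p = 0.971) in SW480-B, turning to 0.29 and 1.05 without SW480 replicate 1. BNIP3L, ADM, P4HA1, P4HA2, KDM3A and DDIT4 did not pass in any comparison in edgeR or DESeq2, with log2 fold changes between -2.23 (DDIT4, a stress-induced inhibitor of mTOR signaling, between SW480-gRNA-B-all and SW480) and 0.78 (P4HA2, a collagen prolyl hydroxylase, in SW480-B against SW480).

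**Figure D2:**
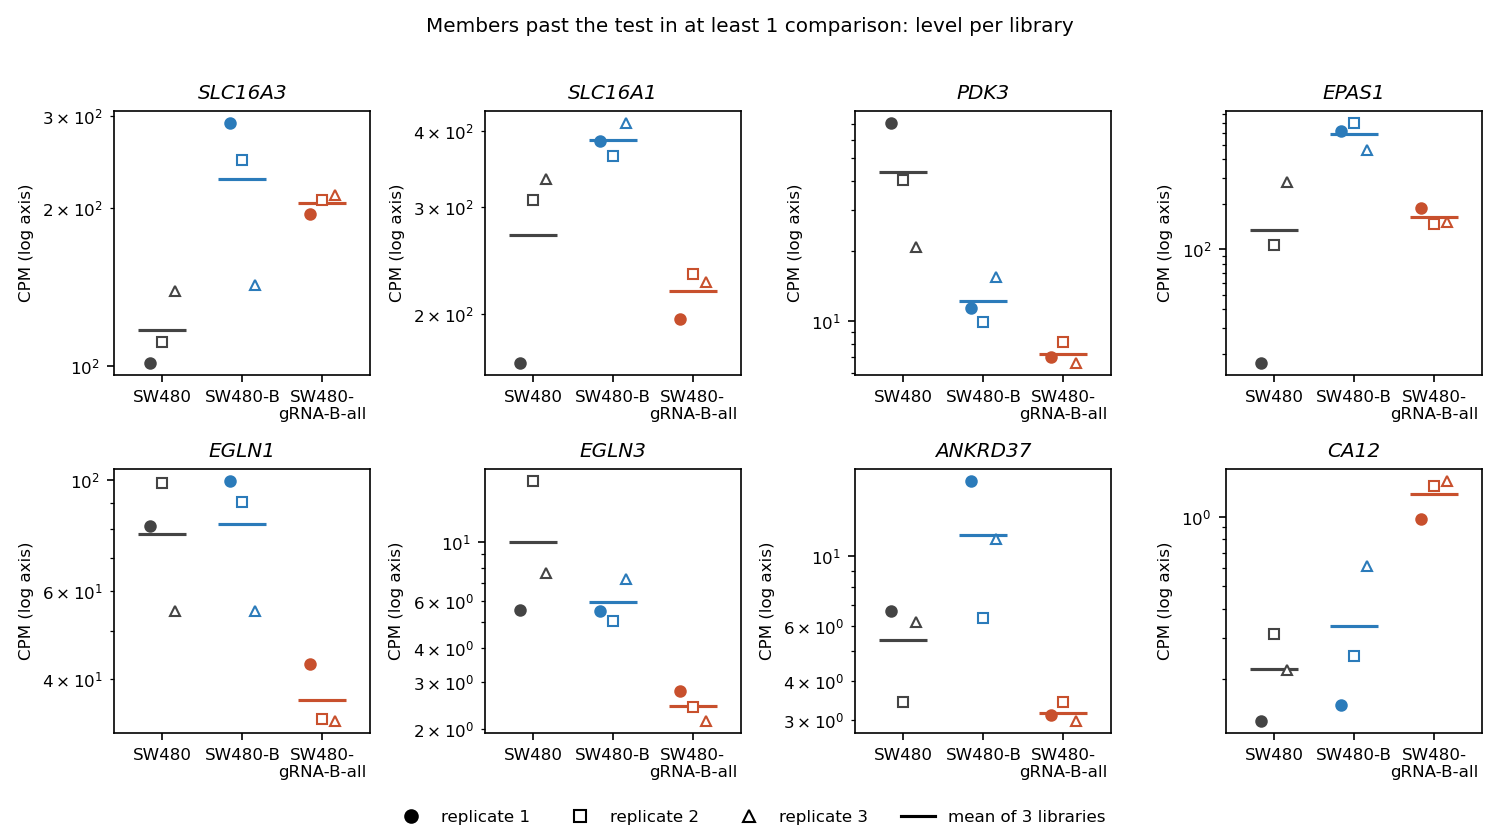
CPM per library on a log axis for the 8 members that passed in at least 1 comparison, with 3 libraries per line marked by replicate number and a bar at the mean of the 3. EGLN1 and EGLN3 are lowest in all 3 SW480-gRNA-B-all libraries, EPAS1 is highest in all 3 SW480-B libraries, and PDK3 falls into 3 separate ranges.

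In the handling of pyruvate and lactate, PDK3 had the largest log2 fold change of any tested member between SW480-gRNA-B-all and SW480. PDK3 (ENSG00000067992, chrX:24483361-24568583) is a pyruvate dehydrogenase kinase that HIF is known to induce. Its level was 70.5, 40.1 and 20.8 CPM in SW480, 11.4, 9.93 and 15.5 CPM in SW480-B and 7.03, 8.14 and 6.62 CPM in SW480-gRNA-B-all. The 3 lines did not overlap, with SW480 highest, SW480-B between and SW480-gRNA-B-all lowest, although SW480 itself spread over 3.40-fold. The log2 fold change was -2.65 ± 0.45 (SE, edgeR adjusted p = 0.0235) in SW480-gRNA-B-all and -1.84 ± 0.45 (SE, edgeR adjusted p = 0.109) in SW480-B against SW480. Between the derivatives PDK3 changed by -0.76 ± 0.24 (SE, edgeR adjusted p = 0.0934), past the test in DESeq2 (adjusted p = 0.0422). In SW480-B against SW480 the fit without a filter on low counts (adjusted p = 0.00765), the fit of all 9 libraries (adjusted p = 0.0372), DESeq2 (adjusted p = 0.00227) and the fit without SW480 replicate 3 (adjusted p = 0.00881) put PDK3 past the threshold. PDK1 is the related kinase most often named as a HIF target. Its level was 27.9, 31.9 and 21.3 CPM in SW480, 10.7, 31.0 and 22.1 CPM in SW480-B and 15.9, 16.5 and 14.8 CPM in SW480-gRNA-B-all. The highest SW480-gRNA-B-all value was below the lowest SW480 value, and the log2 fold change was -0.82 ± 0.21 (SE, edgeR adjusted p = 0.0562), past the test in DESeq2 (adjusted p = 0.0164) but not in edgeR.

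Each lactate transporter passed in 1 comparison, SLC16A3 higher in SW480-gRNA-B-all when set against SW480, and SLC16A1 lower when set against SW480-B. SLC16A3 (ENSG00000141526, chr17:80175810-80219005) is the HIF-responsive lactate exporter MCT4. Its level was 101, 111 and 139 CPM in SW480, 291, 248 and 143 CPM in SW480-B and 195, 207 and 212 CPM in SW480-gRNA-B-all. All 6 libraries of the derivatives were above all 3 of SW480. The SLC16A3 log2 fold change against SW480 was 0.77 ± 0.16 (SE, edgeR adjusted p = 0.0366) in SW480-gRNA-B-all and 0.96 ± 0.30 (SE, edgeR adjusted p = 0.182) in SW480-B, and with SW480-gRNA-B-all replicates 2 and 3 summed the first had an adjusted p of 0.153. SLC16A1 (ENSG00000155380, chr1:113454469-113500215) is the more widely expressed transporter MCT1. Its level was 166, 308 and 334 CPM in SW480, 384, 363 and 412 CPM in SW480-B and 196, 233 and 226 CPM in SW480-gRNA-B-all. It was higher in each SW480-B library than in each SW480-gRNA-B-all library, and SW480 ran from below SW480-gRNA-B-all to between the derivatives. The SLC16A1 log2 fold change was -0.83 ± 0.16 (SE, edgeR adjusted p = 0.0181) between SW480-gRNA-B-all and SW480-B, past the test in 4 of 6 fits that left out 1 library and not without replicate 2 (adjusted p = 0.101) or replicate 3 (adjusted p = 0.112) of SW480-gRNA-B-all; against SW480 it was -0.34 ± 0.26 (SE, edgeR adjusted p = 0.418) in SW480-gRNA-B-all and 0.54 ± 0.29 (SE, edgeR adjusted p = 0.412) in SW480-B. SLC16A3 made up 37.8, 26.5 and 29.4% in SW480, 43.1, 40.5 and 25.8% in SW480-B and 49.9, 47.1 and 48.5% in SW480-gRNA-B-all of the counts on the pair, with SW480-gRNA-B-all above every other library. SLC16A3 shares 5.22% of its exon bases with CSNK1D and SLC16A1 shares 3.64% with SLC16A1-AS1, each on the opposite strand.

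The calls between SW480-gRNA-B-all and SW480, all 5, were lost without SW480 replicate 2 (adjusted p 0.0804 to 0.140), without SW480-gRNA-B-all replicate 1 (0.0660 to 0.106), replicate 2 (0.0982 to 0.164) or replicate 3 (0.102 to 0.162), and EGLN1 also without SW480 replicate 1 (0.0700). Without SW480 replicate 3 all 5 held and 10 members passed, among them HK2 (log2 fold change -2.17, adjusted p = 0.0117). Between SW480-gRNA-B-all and SW480-B, EPAS1 alone remained without replicate 2 or 3 of SW480-gRNA-B-all, and EGLN1 and EGLN3 were lost without SW480-B replicate 1 (adjusted p = 0.0802 and 0.0564) or replicate 2 (0.0972 and 0.0536), as was ANKRD37 without SW480-B replicate 1 (0.0519) or SW480-gRNA-B-all replicate 1 (0.0527).

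The 16 enzymes from glucose to lactate did not pass in any comparison in edgeR. Of the 16, 4, 2 and 3 were at an unadjusted p under 0.05 in the same 3 comparisons, and DESeq2 called 3, 0 and 0. They took 1.60, 1.79 and 1.65% in SW480, 0.967, 1.47 and 1.29% in SW480-B and 1.13, 1.51 and 1.49% in SW480-gRNA-B-all of all counts on genes. Every SW480 library was above every SW480-B and SW480-gRNA-B-all library in this share. Its mean was 1.68 ± 0.0966%, 1.24 ± 0.256% and 1.38 ± 0.209% (SD, n = 3). The share weighs each enzyme by its counts, and GAPDH, ENO1 and PKM had the highest mean CPM of the 16 in every line. Their means were 5524, 2817 and 2507 CPM in SW480, 4007, 1686 and 2186 CPM in SW480-B and 4268, 2045 and 1676 CPM in SW480-gRNA-B-all. By sign alone, 11 of the 16 were below SW480 and 5 above it in SW480-gRNA-B-all, and 10 below and 6 above in SW480-B. Per kilobase of exon, GAPDH was the most abundant member in each line (2306 ± 77.4 CPM per kb in SW480, SD, n = 3), ahead of ENO1 (540.1 ± 58.1) and TPI1 (418 ± 23.4). GAPDH is the glyceraldehyde phosphate dehydrogenase often used as a loading control. Its level was 5319, 5679.6 and 5574 CPM in SW480, 3044, 5321 and 3655 CPM in SW480-B and 3313, 4766 and 4724 CPM in SW480-gRNA-B-all, with log2 fold changes of -0.42, -0.46 and 0.085 that did not pass (95% intervals -0.88 to 0.05, -1.07 to 0.15 and -0.45 to 0.62); 64 pseudogenes carry its name.

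The glucose transporters did not pass in any comparison in edgeR or DESeq2, with 1 of 2 at an unadjusted p under 0.05 between SW480-gRNA-B-all and SW480 and 0 elsewhere. SLC2A1 (GLUT1) is the transporter that HIF and MYC are known to raise. Its level was 1152, 1406 and 1577 CPM in SW480, 1221, 1861 and 1502 CPM in SW480-B and 1677, 2210.4 and 2255 CPM in SW480-gRNA-B-all. Each SW480-gRNA-B-all library exceeded each SW480 library, and the log2 fold change was 0.53 ± 0.22 (SE, edgeR adjusted p = 0.169). SLC2A3 (GLUT3) is a transporter of high affinity for glucose. Its level was 642, 1497 and 1629.5 CPM in SW480, 1671, 2247 and 1383 CPM in SW480-B and 639, 1306 and 1294 CPM in SW480-gRNA-B-all. It was lowest in replicate 1 of both SW480 and SW480-gRNA-B-all, at nearly the same value, and its log2 fold changes were -0.25, 0.50 and -0.72, the first turning to 0.017 without SW480-gRNA-B-all replicate 1. SLC2A3 held 35.8, 51.6 and 50.8% in SW480, 57.8, 54.7 and 47.9% in SW480-B and 27.6, 37.1 and 36.5% in SW480-gRNA-B-all of the counts on the pair.

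Hexokinases trap glucose by phosphorylation, and HK2 is the isoenzyme that tumors commonly raise. HK2 was at 367, 262 and 70.8 CPM in SW480, 109, 113 and 102 CPM in SW480-B and 97.9, 58.7 and 57.4 CPM in SW480-gRNA-B-all. SW480 replicates 1 and 2 were far above the other libraries, SW480 replicate 3 was among the SW480-B and SW480-gRNA-B-all values, and within SW480 the highest was 5.19-fold the lowest. The HK2 log2 fold change was -1.76 ± 0.58 (SE, edgeR adjusted p = 0.104) in SW480-gRNA-B-all and -1.12 ± 0.51 (SE, edgeR adjusted p = 0.331) in SW480-B; in SW480-gRNA-B-all it passed in DESeq2 (adjusted p = 0.0152) and in the fit of all 9 libraries (adjusted p = 0.046). HK1 is the constitutive isoenzyme. Its level was 65.9, 115 and 113 CPM in SW480, 120.2, 155 and 151 CPM in SW480-B and 135, 129.7 and 133 CPM in SW480-gRNA-B-all, with log2 fold changes of 0.40 and 0.55 against SW480 that did not pass. HK2 accounted for 84.8, 69.6 and 38.5% in SW480, 47.6, 42.2 and 40.2% in SW480-B and 42.0, 31.2 and 30.1% in SW480-gRNA-B-all of the counts on the pair. PFKFB3, which makes the activator of phosphofructokinase, was at 16.7, 34.9 and 21.0 CPM in SW480, 25.3, 29.4 and 29.2 CPM in SW480-B and 32.3, 32.3 and 33.1 CPM in SW480-gRNA-B-all and its log2 fold changes of 0.39, 0.22 and 0.21 did not pass. PKM encodes a pyruvate kinase. Its level was 2672, 2297 and 2552 CPM in SW480, 1875, 2540.5 and 2142 CPM in SW480-B and 1546, 1745 and 1738 CPM in SW480-gRNA-B-all. Each SW480-gRNA-B-all library was below each other library, and the log2 fold change against SW480 was -0.63 ± 0.20 (SE, edgeR adjusted p = 0.0971), past the test in DESeq2 (adjusted p = 0.0172). GPI is the isomerase that follows hexokinase and is named here after its values were seen. Its level was 448, 846 and 597 CPM in SW480, 250.2, 449.7 and 386 CPM in SW480-B and 216, 352 and 351 CPM in SW480-gRNA-B-all, with -1.08 ± 0.29 (SE, edgeR adjusted p = 0.0673) in SW480-gRNA-B-all and -0.79 ± 0.32 (SE, edgeR adjusted p = 0.285) in SW480-B. All libraries of the derivatives other than SW480-B replicate 2 were below all of SW480, and GPI passed in SW480-gRNA-B-all in the fit of all 9 libraries (adjusted p = 0.0487) and in DESeq2 (adjusted p = 0.0173). The other enzymes and regulators, PFKL, PFKM, PFKP, PFKFB2, PFKFB4, ALDOA, ALDOC, TPI1, PGK1, PGAM1 and ENO1, had log2 fold changes between -0.82 (PFKFB2) and 0.86 (PFKP) and did not pass in edgeR; DESeq2 called PFKFB2 alone, between SW480-gRNA-B-all and SW480-B (adjusted p = 0.0317). MYC, itself no member, was at 761, 441 and 227 CPM in SW480, 399, 423 and 314 CPM in SW480-B and 288, 127 and 127 CPM in SW480-gRNA-B-all, with log2 fold changes of -1.45 ± 0.53 (SE, edgeR adjusted p = 0.133) in SW480-gRNA-B-all and -0.34 ± 0.42 (SE, edgeR adjusted p = 0.732) in SW480-B; like HK2 it was highest in SW480 replicate 1 and lowest within SW480 in replicate 3, and its part in any member's level was not tested.

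Lactate dehydrogenase A, which favors lactate formation, and its partner LDHB did not pass in any comparison in edgeR or DESeq2. LDHA was at 761, 1597 and 1715 CPM in SW480, 524, 1004 and 1326 CPM in SW480-B and 737, 1389.5 and 1354 CPM in SW480-gRNA-B-all. Replicate 1 was the lowest in each line, by at least 1.84-fold, and the lines overlapped. The LDHA log2 fold changes were -0.26 ± 0.37 (SE, edgeR adjusted p = 0.666), -0.50 ± 0.42 (SE, edgeR adjusted p = 0.605) and 0.28 ± 0.36 (SE, edgeR adjusted p = 0.678) for SW480-gRNA-B-all with SW480, SW480-B with SW480 and SW480-gRNA-B-all with SW480-B. LDHB was at 604, 711 and 651 CPM in SW480, 485, 918 and 748 CPM in SW480-B and 418, 594 and 596 CPM in SW480-gRNA-B-all, again lowest in replicate 1 of each line, with log2 fold changes of -0.33, 0.13 and -0.42. LDHA held 55.8, 69.2 and 72.5% in SW480, 52.0, 52.2 and 63.9% in SW480-B and 63.8, 70.0 and 69.4% in SW480-gRNA-B-all of the counts on the pair.

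Levels of many enzymes moved with the replicate number in all 3 lines. Of 38 members with enough counts, 14 (36.8%) were lowest in replicate 1 of all 3 lines, beside 16.1% of 14341 genes, and 10 of these are among the 16 enzymes from glucose to lactate. These were GPI, PFKL, PFKM, ALDOA, TPI1, GAPDH, PGK1, PGAM1, LDHA and LDHB, and the others were PFKFB3, SLC2A1, HIF1A and P4HA2. Of the sum of squares of log2 CPM over the 9 libraries, the replicate number took 81.8% and the line 15.4% for LDHA, and 88.3% and 4.02% for ALDOA, the aldolase of glycolysis (ALDOA, PGAM1, ADM and DDIT4 are shown here after their values were seen). VEGFA and DDIT4 went the other way and were highest in replicate 1 of every line (2 of 38 members, 5.26%, beside 8.89% of all genes), with 75.2% and 49.6% of the sum of squares on the replicate number. For PDK3, EGLN3, ANKRD37 and EGLN1 the line took 83.3%, 76.0%, 73.8% and 73.2%. These 4 had passed a test between lines on the same libraries, which favors a high share. For PKM, which did not pass in edgeR, the line took 78.6%. Over the 38 members the median share was 48.8% for the line and 30.1% for the number, beside 45.1% and 22.3% over all genes. The labels do not say what the numbers stand for, and in SW480-gRNA-B-all the number 1 stands against the nearly alike libraries 2 and 3. Replicate 1 also held the largest share of intronic bases in SW480 (5.57%, against 4.60% and 3.61%) and SW480-B (7.27%, against 3.94% and 3.50%), but not in SW480-gRNA-B-all (3.89%, against 3.65% and 3.91%), and the part of this in the result was not tested.

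**Figure D3:**
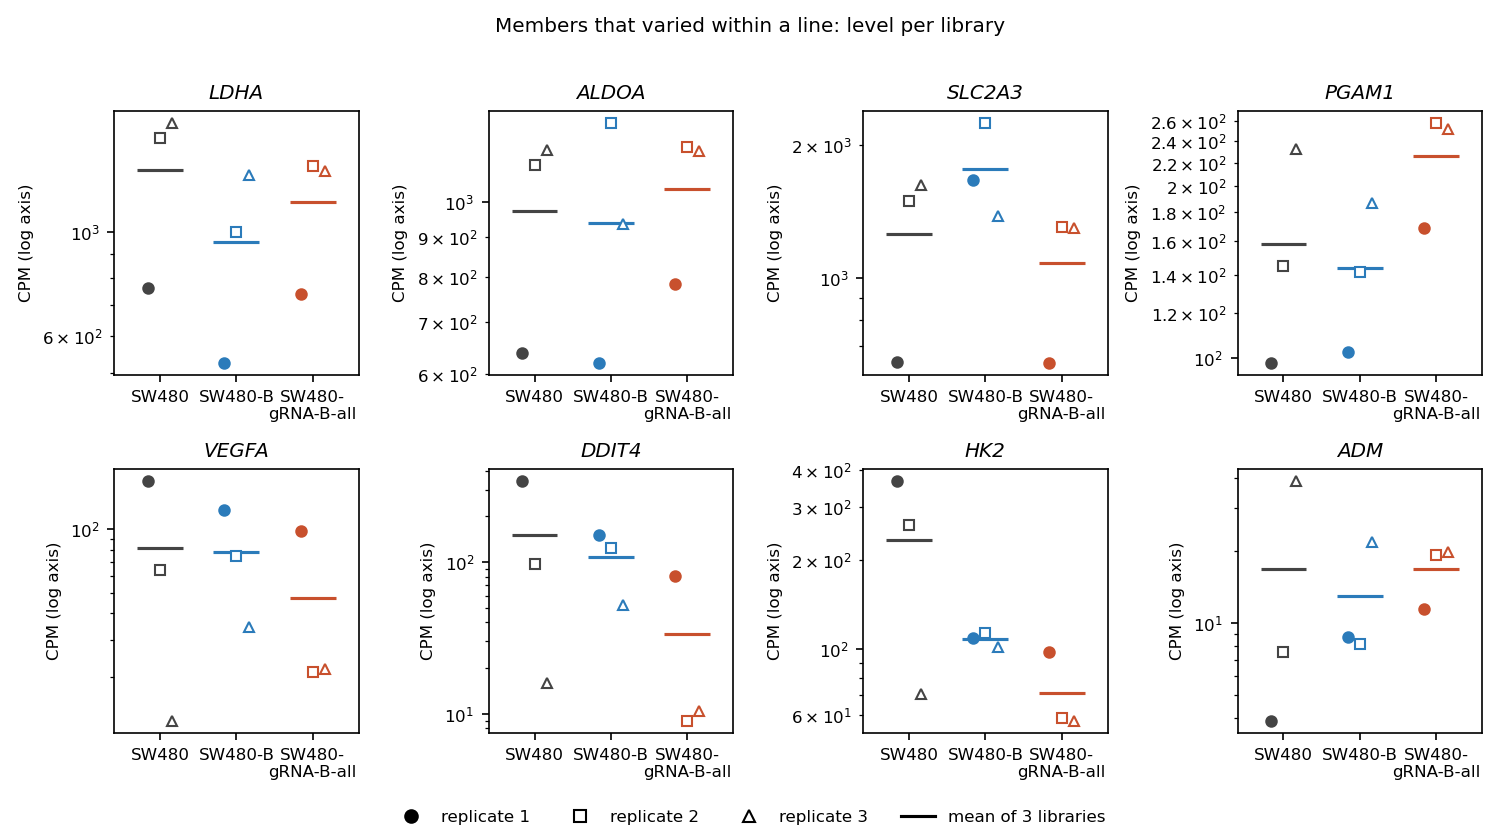
CPM per library on a log axis for 8 members that varied within a line, with 3 libraries per line marked by replicate number and a bar at the mean of the 3. LDHA, ALDOA and PGAM1 are lowest and VEGFA and DDIT4 highest in replicate 1 (filled circle) of each line, and HK2 in SW480 spans 5.19-fold.

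Members spread more within SW480 than within the derivatives. In SW480, 17 of 38 members (44.7%) differed more than 2-fold between the highest and lowest library, beside 35.1% of all genes, against 10 (26.3%, beside 24.6%) within SW480-B and 3 (7.89%, beside 11.3%) within SW480-gRNA-B-all, where replicates 2 and 3 were nearly alike. In SW480, DDIT4 spanned 21.6-fold, EPAS1 16.2-fold, VEGFA 13.5-fold and ADM, the vasodilator peptide adrenomedullin, 9.98-fold. ADM went opposite to VEGFA, at 3.90, 7.53 and 38.9 CPM in SW480 against 168, 64.2 and 12.5 CPM for VEGFA.

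Of 11 tested genes for the entry of pyruvate into mitochondria, 2 passed between SW480-gRNA-B-all and SW480 (18.2%, beside 7.80% of all genes), both lower, and neither with SW480-gRNA-B-all replicates 2 and 3 summed; 7 of the 11 had a negative and 4 a positive log2 fold change. PDHA1 is the catalytic subunit of pyruvate dehydrogenase that the PDKs act on. Its level was 156, 197 and 205 CPM in SW480, 136, 168 and 192 CPM in SW480-B and 116, 97.4 and 96.3 CPM in SW480-gRNA-B-all, with each SW480-gRNA-B-all library below all others and log2 fold changes of -0.89 ± 0.17 (SE, edgeR adjusted p = 0.0279) against SW480 and -0.69 ± 0.18 (SE, edgeR adjusted p = 0.0489) against SW480-B. DLD is the shared dihydrolipoamide dehydrogenase. Its level was 187, 176 and 151 CPM in SW480, 89.0, 147 and 144 CPM in SW480-B and 94.3, 104 and 99.5 CPM in SW480-gRNA-B-all, and its log2 fold change against SW480 was -0.84 ± 0.15 (SE, edgeR adjusted p = 0.027). In the citric acid cycle 1 of 16 genes passed (6.25%), FH (fumarate hydratase), at -0.87 ± 0.18 (SE, edgeR adjusted p = 0.0372). Of 36 genes of the respiratory chain 0 passed in edgeR in each comparison, with 6, 3 and 4 at an unadjusted p under 0.05 and 3, 1 and 0 called by DESeq2. Of 6 genes of galactose use, 0 passed in edgeR in any comparison (2, 0 and 1 at an unadjusted p under 0.05, and 0, 0 and 1 in DESeq2), and likewise 0 of 7 of the pentose phosphate pathway (1, 1 and 0 at an unadjusted p under 0.05, and 1, 0 and 0 in DESeq2).

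Of 32 other HIF target genes tested between SW480-gRNA-B-all and SW480, 3 rose and 0 fell, a share of 9.38% beside 7.80% of all genes (2.29% higher and 5.52% lower). Of the 32, 19 had a negative log2 fold change, and the median was -0.19, beside -0.054 over all genes. ANGPTL4, a lipase inhibitor induced by HIF and by fatty acids, rose by 2.65 ± 0.57 (SE, edgeR adjusted p = 0.0397) from a low level, at 0.131, 0.417 and 0.254 CPM in SW480, 0.307, 0.143 and 0.144 CPM in SW480-B and 2.74, 1.15 and 1.29 CPM in SW480-gRNA-B-all, and NOL3, an apoptosis repressor, by 1.12 ± 0.23 (SE, edgeR adjusted p = 0.0339). Between SW480-gRNA-B-all and SW480-B, 2 of 32 rose and 1 fell, 9.38% beside 8.76% of all genes. ANGPTL4 rose by 3.10 ± 0.55 (SE, edgeR adjusted p = 0.0134) and FLT1, a VEGF receptor, by 1.45 ± 0.36 (SE, edgeR adjusted p = 0.0446). INSIG2, a regulator of sterol synthesis, changed by -0.83 ± 0.21 (SE, edgeR adjusted p = 0.0441). ENO2 is the neuronal enolase. Its level was 50.3, 67.2 and 98.5 CPM in SW480, 47.7, 45.3 and 54.1 CPM in SW480-B and 73.3, 117 and 119.9 CPM in SW480-gRNA-B-all. It was the one of 10 tested glycolysis genes outside the members that passed there, at 1.07 ± 0.21 (SE, edgeR adjusted p = 0.0198). Of 4 genes of gluconeogenesis 1 passed there, FBP1, which runs the phosphofructokinase step backwards. It rose by 2.09 ± 0.40 (SE, edgeR adjusted p = 0.0174), at 0.0655, 1.11 and 1.85 CPM in SW480, 0.923, 1.40 and 2.62 CPM in SW480-B and 8.32, 6.41 and 6.38 CPM in SW480-gRNA-B-all. Between SW480-gRNA-B-all and SW480, 0 of the 10 glycolysis genes, 0 of the 4 gluconeogenesis genes and 0 of 12 other regulators of HIF passed in edgeR, with 2, 1 and 2 at an unadjusted p under 0.05 and 0, 1 and 1 called by DESeq2; VHL was the 1 of these 12 that passed between SW480-gRNA-B-all and SW480-B. With SW480-gRNA-B-all replicates 2 and 3 summed, the call for ANGPTL4 between SW480-gRNA-B-all and SW480-B held (adjusted p = 0.036), and those for PDHA1 (0.145 and 0.236), DLD (0.13), FH (0.144), ANGPTL4 against SW480 (0.108), NOL3 (0.138), ENO2 (0.0897), FBP1 (0.0553), VHL (0.126), INSIG2 (0.184) and FLT1 (0.171) did not. In SW480-B against SW480, 0 genes of these lists passed in edgeR; among the other HIF targets 8 of 31 were at an unadjusted p under 0.05 and 2 were called by DESeq2.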

How the data were processed

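Poly(A) RNA of 9 libraries, 3 per line, was sequenced by the authors as stranded paired-end libraries. They deposited raw counts per Ensembl gene on GRCh37, 1 file per library, not normalized. STAR is named only in a metrics header; the counter with its strand setting and all versions are not given in the sources used here. Lines that name no gene (no feature 5.22% to 9.93%, ambiguous 3.09% to 3.44%) were left out. From the deposited Picard metrics (other values: shares of bases) the intronic share was read. Counts were tested for all genes past filterByExpr with edgeR 4.0.16 (TMM, robust quasi-likelihood test, R 4.3.3), each pair of lines alone, after a test on simulated data; DESeq2 1.42.0 and the settings in the closing section were alternatives. Members and lists were chosen with earlier results of these data known. Named were members past the test, 14 fixed members, and per list up to 3 genes in each direction with the largest changes. A gene of the other HIF targets that the rule names is not reported here. Same-numbered libraries of SW480-B and SW480 deviated together (r = 0.309, 0.407 and 0.400 over 16650 genes), so the numbers pair them; with the replicate number as a block 0 members passed as well. Symbols, exon lengths and overlaps came from GENCODE, and promoter windows from RefSeq on GRCh38.p14.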

Additional observations from a re-analysis of the deposited data

Results flagged for a closer look

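By the direct test of SW480-gRNA-B-all against SW480-B, the 2 derivatives differed for 12 named genes, all past the threshold in the quasi-likelihood test of edgeR (Benjamini-Hochberg). Of all 15846 genes tested there 8.76% passed, and of the 39 members tested 5 did (12.8%). The derivatives also differ in clone and vector, which cannot be told apart from the way of switching on BASP1. Among the members the log2 difference was -1.85 for EPAS1, -1.90 for ANKRD37, -1.29 for EGLN3, -1.18 for EGLN1 and -0.83 for SLC16A1, all lower in SW480-gRNA-B-all. Each of these 5 was lower in all 3 SW480-gRNA-B-all libraries than in any SW480-B library. This adds no support, because the 5 were picked by the test on these same libraries. Among the other pathway genes it was 3.10 for ANGPTL4, 2.09 for FBP1, 1.45 for FLT1, 1.07 for ENO2 and 0.69 for VHL, higher in SW480-gRNA-B-all, and -0.83 for INSIG2 and -0.69 for PDHA1, lower in SW480-gRNA-B-all. EPAS1 is the member whose call held in each fit that left out 1 library, but it was not past the threshold in the fit of all 9 libraries (adjusted p = 0.178).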

How the results depend on the processing

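Counts of members past the test moved with the setting, and the cause was not tested except where fewer libraries were fitted. In SW480-gRNA-B-all against SW480 (2 higher, 3 lower, 4 above 2-fold), the fit of all 9 libraries gave 1 higher and 5 lower, DESeq2 gave 7 lower, and summing replicates 2 and 3 of SW480-gRNA-B-all gave 0, 0 and 0; leaving out 1 library gave 0 to 4 higher, 0 to 6 lower and 0 to 7 above 2-fold. In SW480-B against SW480 (0, 0 and 0), no filter and the fit of all 9 libraries each gave 1 lower, 1 above 2-fold, and DESeq2 gave 1 higher, 2 lower and 3 above 2-fold; leaving out 1 library gave 0 to 1, 0 to 3 and 0 to 4. In SW480-gRNA-B-all against SW480-B (0, 5 and 4), no filter and DESeq2 each gave 1 higher (CA12) and also called PFKFB2 lower, and DESeq2 also PDK3. The fit of all 9 libraries gave 2 lower and 2 above 2-fold, and summing gave 1 and 1. Leaving out 1 library gave 0 to 1 higher and 1 to 7 above 2-fold, and kept 1 to 5 of the 5 lower calls. Among members not called in the main fit, HK2, PFKFB2, ALDOC and DDIT4 passed as lower in 1 such fit each. RLE size factors and a filter of 1 CPM in 3 libraries moved no count by over 1.5 times. Over all genes DESeq2 called 3125, 1132 and 2305, against 1256, 216 and 1388 in edgeR.

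With the replicate number as a block, SW480-gRNA-B-all against SW480 had 2 higher and 3 lower, now without EGLN3 (adjusted p = 0.0507) and with GPI (adjusted p = 0.0318). SW480-B against SW480 had 0, and SW480-gRNA-B-all against SW480-B had the 5 lower calls and 3 higher (CA12, CA9 and PGAM1). Of the other named genes FH (adjusted p = 0.0566) and ANGPTL4 (0.0678) against SW480 and FLT1 (0.0629) against SW480-B were not past the threshold with the block. The numbers did not pair SW480-gRNA-B-all with SW480 (r = 0.316, -0.012 and 0.296) or with SW480-B (0.269, -0.099 and 0.286). The block turned VEGFA in SW480-B against SW480 from -0.086 to 0.40.

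Of 1029 single-gene values under alternatives, 846 kept their direction and side of the threshold, 137 lost a call, 29 gained one and 17 turned direction, none of them past the test. Besides the VEGFA value under the block these were, with the range of log2 fold changes over the fits without 1 library, SLC2A3 (-0.54 to 0.017), EPAS1 (-0.24 to 1.39) and VEGFA (-1.98 to 0.29) in SW480-gRNA-B-all against SW480; SLC2A1 (-0.013 to 0.29), LDHB (-0.085 to 0.35), EGLN1 (-0.13 to 0.29), VEGFA (-0.60 to 1.05) and MYC (-0.68 to 0.21) in SW480-B against SW480; and GAPDH (-0.071 to 0.33), LDHA (-0.0057 to 0.59), SLC16A3 (-0.41 to 0.071), HIF1A (-0.21 to 0.13) and BASP1 (-0.15 to 0.22) in SW480-gRNA-B-all against SW480-B. Leaving out 1 of 3 libraries always moves a mean by less than the SD, so this could not test how stable the mean enzyme shares are. CA9, CA12, EGLN3, ANGPTL4 and BNIP3 rest on few counts, which limits their precision.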
